A study of Sus scrofa with 8 samples.

Results

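Annexin A1 (ANXA1), annexin A5 (ANXA5) and the S100 protein A11 (S100A11) are described here in infarcted and remote myocardium of the pig. The genes were taken by symbol from the table of the authors' comparison, and they are 3 of the 1342 genes that could be named through it and 3 of the 25470 transcripts on the array. Each had 1 named transcript in that table, 15189179 for ANXA1, 15321343 for ANXA5 and 15280703 for S100A11. Any other transcript of these genes that the table left out carries no symbol and could not be examined. That table lists only transcripts with at least a 2-fold change and an unadjusted p under 0.05 by the authors' own group averages of the same samples, which are not plain means, so that some have a smaller fold change here. Because of this selection the presence of the 3 genes in it is not a finding, and the p-values below are not independent evidence of a change. No genome position is given, because the array was annotated on another pig genome build than the annotation used here.

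The samples come from 4 young female Large White pigs, each with an infarcted and a remote sample of the left ventricle, 8 arrays in all. In every pig a balloon had closed the left anterior descending coronary artery for 90 min, and every pig had received amiodarone, acetylsalicylic acid and antibiotics. The infarcted sample was cut from the anterior wall supplied by that artery and the remote sample from the posterior wall of the same heart, so the remote samples are not tissue of uninjured pigs. The sources place tissue collection at day 7 (design text) or day 10 (methods) after the occlusion.

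Annexins are cytosolic proteins that bind membranes rich in phosphatidylserine when calcium enters a cell. At a tear in the plasma membrane they gather within moments, and annexin A5 forms ordered arrays that help to hold the torn edge. Annexin A1 also acts outside the cell, where it binds formyl peptide receptors and dampens the entry of neutrophils. S100A11 is a small calcium-binding protein that pairs with annexin A1 through the annexin's amino-terminal tail and takes part in plasma membrane repair. All 3 genes are active in many cell types, including leukocytes, fibroblasts and endothelium, and annexin A5 is widely known as the label for dying cells.

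The arrays had median log2 signals of 2.96 to 3.22. Both arrays of pig 4 stood apart by a narrower spread of signals, with an SD over transcripts of 1.46 in infarcted and 1.49 in remote tissue, while the other 6 arrays had 1.68 to 1.84. Results that rest on pig 4 are therefore given with and without it. Of the cell type lists, 7 of 15 macrophage and monocyte markers, 8 of 12 fibroblast and myofibroblast markers and 10 of 13 cardiomyocyte markers carried a name. MYH7, the main ventricular myosin, had log2 signals of 8.95 to 11.18 in infarcted and 11.27 to 12.28 in remote tissue, far above the array medians in every sample of this labelled heart muscle.

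ANXA1, ANXA5 and S100A11 all rose in infarcted myocardium, by 2.63-fold to 3.73-fold, and no infarcted sample overlapped with a remote one for any of them. Here rose and fell mean an adjusted p under 0.05 in limma, a linear model with moderated variances, with Benjamini-Hochberg adjustment over all 25470 transcripts. By that rule 2.47% of all transcripts were higher and 3.42% lower in infarcted tissue. Among the transcripts with a single named gene, which had been selected on the same contrast, the shares were 25.3% higher and 35.0% lower. In the order of fold changes among the 586 named genes that were higher, ANXA1 stood at place 106, S100A11 at place 236 and ANXA5 at place 276. In each of the 4 pigs the infarcted sample exceeded the remote sample for all 3 genes. Bulk tissue was measured, so more cells that express a gene and more RNA of it per cell cannot be told apart.

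ANXA1, the annexin with a long regulatory tail that S100A11 binds, had log2 signals of 7.71, 8.24, 8.60 and 7.18 in the infarcted tissue of pigs 1 to 4, against 6.42, 6.23, 6.49 and 4.99 in their remote tissue. The lowest infarcted signal was thus above the highest remote signal by 0.69. Pig 4 had the lowest signal in each region. Mean signals were 7.93 ± 0.62 in infarcted and 6.03 ± 0.70 in remote tissue (SD, n = 4 pigs). This was a rise of 1.90 in log2 signal, or 3.73-fold (standard error 0.39, 95% confidence interval 1.04 to 2.76, adjusted p = 0.0172 from limma). Within pigs 1 to 4 the difference was 1.29, 2.01, 2.11 and 2.19, so pig 1 showed the smallest rise. The adjusted p was 0.0508 without infarcted replicate 1 and 0.0610 without infarcted replicate 3, and it lay at 0.0499 without infarcted replicate 2. The log2 fold changes were then 1.97, 1.68 and 1.80 in the same order. These fits do not pair the samples by pig.

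**Figure D1:**
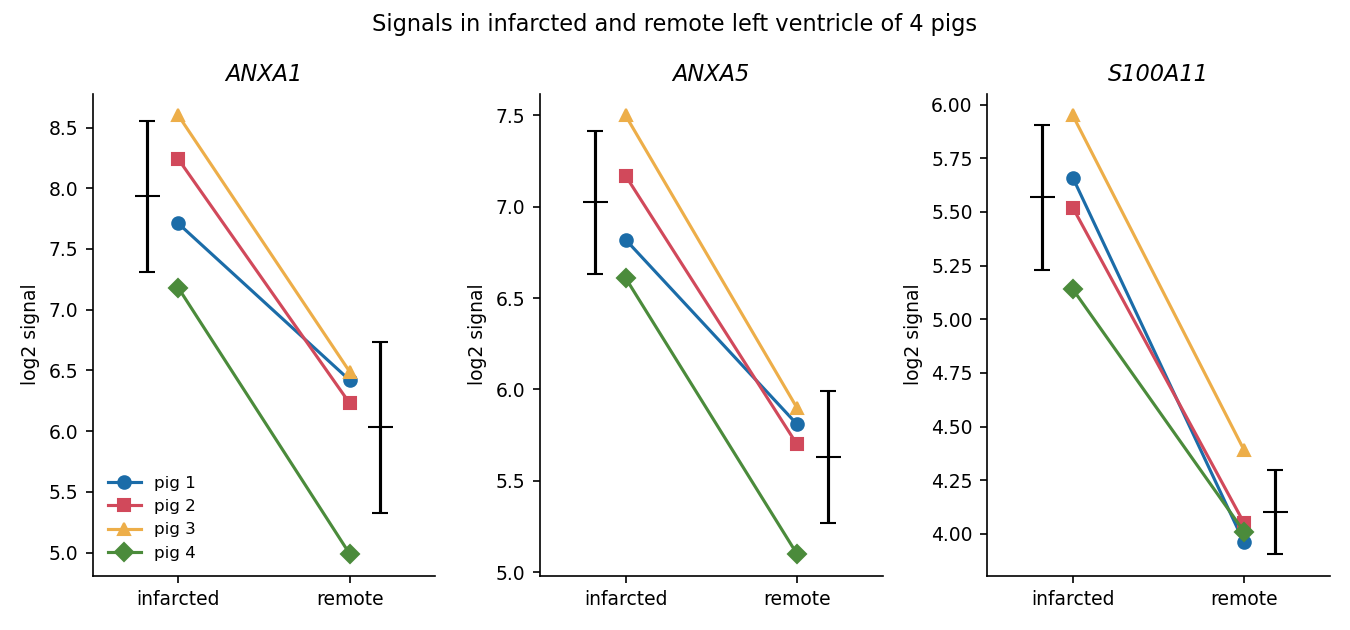
Log2 signal (y axis, a separate scale for each gene, not starting at 0) of ANXA1, ANXA5 and S100A11 in infarcted and remote tissue, with 1 line per pig and the mean ± SD of 4 pigs beside the points. Every line falls toward remote tissue, and the lowest infarcted signal exceeds the highest remote signal by 0.69 for ANXA1, 0.71 for ANXA5 and 0.75 for S100A11.

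ANXA5, the shorter-tailed annexin used to stain dying cells, had log2 signals of 6.82, 7.17, 7.50 and 6.61 in infarcted tissue, against 5.81, 5.70, 5.90 and 5.10 in remote tissue of pigs 1 to 4. Again pig 4 was lowest and pig 3 highest in each region. The means were 7.03 ± 0.39 in infarcted and 5.63 ± 0.36 in remote tissue (SD, n = 4 pigs), a smaller spread than that of ANXA1 in both regions. ANXA5 rose by 1.40 on the log2 scale, or 2.63-fold (standard error 0.27, 95% confidence interval 0.81 to 1.99, adjusted p = 0.0127 from limma). The change within pigs 1 to 4 was 1.01, 1.47, 1.60 and 1.51. Leaving out any 1 array kept the adjusted p between 0.00569 and 0.0444.

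S100A11, the calcium sensor that binds annexin A1, had log2 signals of 5.66, 5.52, 5.95 and 5.14 in infarcted tissue, against 3.96, 4.05, 4.39 and 4.01 in remote tissue of pigs 1 to 4. Its 4 remote samples lay close together, and unlike for the annexins the remote sample of pig 4 was not the lowest. The means were 5.57 ± 0.34 in infarcted and 4.10 ± 0.20 in remote tissue (SD, n = 4 pigs), and the remote signals were above the median of every array. S100A11 rose by 1.47 on the log2 scale, or 2.76-fold (standard error 0.23, 95% confidence interval 0.96 to 1.97, adjusted p = 0.0051 from limma), the smallest adjusted p of the 3 genes. Within pigs 1 to 4 the change was 1.70, 1.47, 1.56 and 1.13, with pig 4 at the low end. Without any 1 array the adjusted p stayed between 0.00147 and 0.0253. Its transcript also lists an unnamed locus annotated as a protein S100-A11, so part of the signal may come from that locus.

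**Figure D2:**
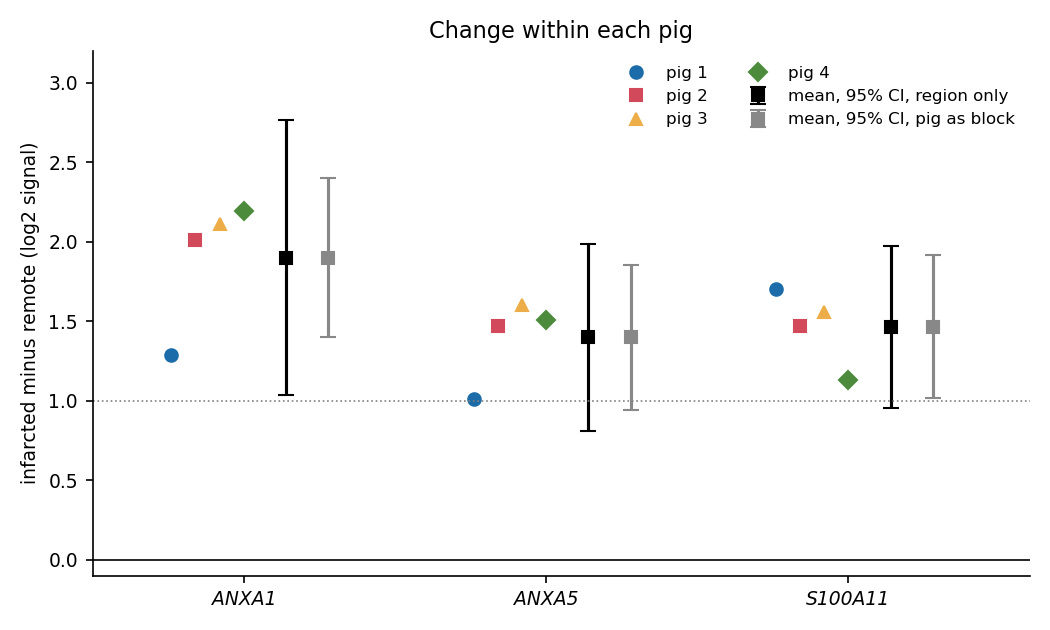
Infarcted minus remote log2 signal (y axis) in each of the 4 pigs for the 3 genes, beside the mean change with its 95% confidence interval from limma with region only (black) or with pig as replicate block (gray). All 12 differences exceed 1, the dotted line that marks a 2-fold change, and the intervals narrow for each gene with the block.

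With pig as replicate block, which compares the regions within each heart, the standard errors were 0.22 for ANXA1, 0.20 for ANXA5 and 0.20 for S100A11. The adjusted p from limma was then 0.00152, 0.00337 and 0.00264 in the same order. Without pig 4 the log2 fold changes were 1.80 for ANXA1, 1.36 for ANXA5 and 1.58 for S100A11, and all 3 remained past the threshold (adjusted p = 0.00115, 0.00279 and 0.00103). An exact permutation test of each gene alone, 4 samples against 4, gave a 2-sided p of 0.0286. This is the smallest p that such a test can give, and the test ignores the pairing of samples within pigs. Flipping the sign of the 4 within-pig differences allows no p under 0.125.

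The changes of the 3 genes were compared pig by pig. With 4 pigs the test used cannot give a p under 0.125, so none of the 3 differences could pass it. ANXA1 changed more than ANXA5 in every pig, by 0.28, 0.54, 0.51 and 0.68 on the log2 scale in pigs 1 to 4 (mean 0.50 ± 0.17, SD, n = 4). An exact sign-flip test of this difference gave p = 0.125, the smallest it can give, and 0.375 after adjustment over the 3 pairs of genes. ANXA1 changed more than S100A11 in 3 of 4 pigs (mean difference 0.44 ± 0.61, SD, exact p = 0.25, adjusted p = 0.375). ANXA5 and S100A11 differed by −0.07 ± 0.45 on average (SD, n = 4, exact p = 1.0), from −0.69 in pig 1 to 0.38 in pig 4. Pig 1 had the smallest change of both annexins and the largest of S100A11. Pig 4 had the smallest change of S100A11 and the largest of ANXA1. Quantile normalization, which gives all arrays the same spread, put the smallest change of S100A11 in pig 2 (1.30), with pig 4 at 1.42. It left pig 1 smallest for both annexins and largest for S100A11, and pig 4 largest for ANXA1.

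On the deposited scale ANXA1 and ANXA5 also moved together among the pigs within a region. Relative to the mean of its region, ANXA1 deviated by −0.22, 0.31, 0.67 and −0.75 in the infarcted samples of pigs 1 to 4 and by 0.39, 0.20, 0.46 and −1.04 in the remote samples. The deviations of ANXA5 had the same sign in all 8 samples, at −0.21, 0.15, 0.48 and −0.42 in infarcted and 0.18, 0.07, 0.27 and −0.53 in remote tissue. Those of S100A11 were smaller than those of ANXA1 in all 8 samples, at 0.09, −0.05, 0.38 and −0.43 in infarcted and −0.14, −0.05, 0.29 and −0.09 in remote tissue. On this scale pig 3 was above the region mean for all 3 genes in both regions, and pig 4 was below it. Over these 8 deviations Pearson's r was 0.986 between ANXA1 and ANXA5, 0.643 between ANXA1 and S100A11 and 0.692 between ANXA5 and S100A11. These are descriptions, since the 8 samples come from 4 hearts and share the scaling of each array. After quantile normalization pig 4 was no longer lowest for ANXA5 or S100A11 in infarcted tissue. ANXA5 was then 6.77, 7.025, 7.55 and 7.13 in pigs 1 to 4, and S100A11 was 5.545, 5.30, 5.95 and 5.60. ANXA1 was still lowest in pig 4, at 7.69.

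**Figure D3:**
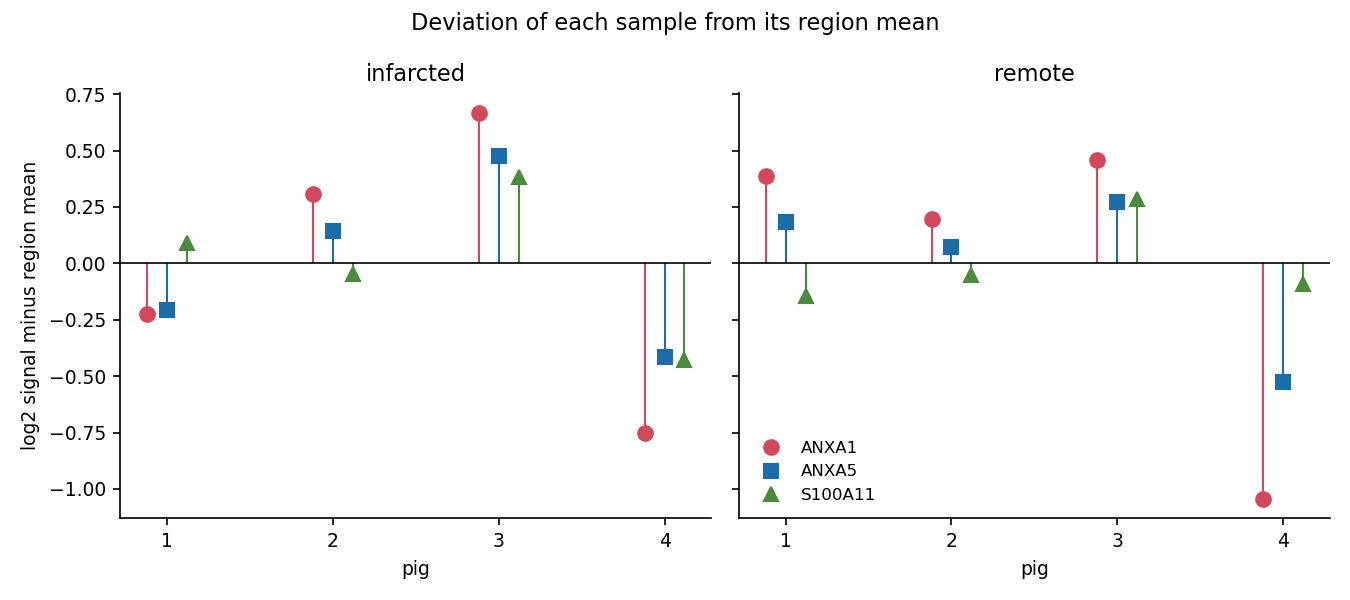
Log2 signal minus the mean of its region (y axis) for each pig (x axis) in infarcted (left) and remote (right) tissue, with 1 marker per gene. On the deposited scale ANXA1 and ANXA5 lie on the same side of 0 in all 8 samples. Both are farthest from it in remote tissue of pig 4 (−1.04 and −0.53), where S100A11 is at −0.09.

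The gene whose signals were most like those of ANXA1 over the 8 samples was ANXA5, and the reverse also held. Likeness was Pearson's r over the 8 log2 signals, among 1263 other named genes with a mean signal above the median of all transcripts. It was 0.991 for this pair. S100A11 stood at place 87 in the order for ANXA1 (r = 0.917) and at place 23 in that for ANXA5 (r = 0.952). All these named genes had been selected for a difference between the regions in the same 8 samples.

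The place of ANXA5 depended on how the arrays were scaled. After quantile normalization, which gives all arrays the same spread, ANXA5 was at place 4 for ANXA1 (r = 0.975), and S100A11 was first for ANXA5 (r = 0.979). For deviations from the region means, ANXA5 was at place 1 for ANXA1 on the deposited scale, at place 60 after quantile normalization (r = 0.768) and at place 2 without pig 4 (r = 0.994, 6 samples). Quantile normalization moved the remote ANXA1 signal of pig 4 to 5.38, against 4.99 as deposited, and that of ANXA5 to 5.50, against 5.10.

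After ANXA5, the genes most like ANXA1 were LCP1 (r = 0.984), COL3A1 (0.983), STK17B (0.982) and NRAS (0.980). In remote tissue pig 4 was far below the other pigs for LCP1 (4.33), COL3A1 (3.77) and NRAS (5.60), and lowest for ANXA1 (4.99). The places of these and the following genes without pig 4 or after quantile normalization were not examined. LCP1 encodes the actin-bundling plastin of leukocytes, COL3A1 a fibrillar collagen chain of fibroblasts, STK17B a serine/threonine kinase and NRAS a small GTPase. Next to ANXA1, the genes most like ANXA5 were CST3 (0.983), LCP1 (0.981), STK17B (0.978) and ISLR (0.977), where CST3 encodes the secreted protease inhibitor cystatin C. For S100A11 they were GUSB (0.982), CSF1 (0.981), CDC42 (0.980), ADAM12 (0.980) and VAV1 (0.979). These encode a lysosomal glucuronidase, the growth factor of macrophages, a small GTPase of the actin cytoskeleton, a membrane metalloprotease and a signaling protein of blood cells. The log2 fold changes of these genes ran from 1.25 for CDC42 to 2.86 for ADAM12. Over the deviations from the region means r was lower for each of them. It ran from 0.933 to 0.959 for those listed with ANXA1 and from 0.875 to 0.909 for those with ANXA5. For S100A11 it ran from 0.766 (ADAM12) to 0.922 (CSF1). NRAS lost its call in limma when any 1 array other than infarcted replicate 4 was left out (adjusted p up to 0.145), with median centring (0.105) and with trend and robust moderation (0.0698). Single arrays also ended the call of STK17B, without remote replicate 2 or one of infarcted replicates 1, 2 and 3 (up to 0.0671), and of CST3, without remote replicate 1, infarcted replicate 1 or infarcted replicate 3 (up to 0.0535). The transcripts of CSF1 and ISLR share their annotation with an unnamed locus.

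Of 12 annexin genes, 3 carried a name, and the only named one besides ANXA1 and ANXA5 was ANXA2. The other 9 were not analysed here, since a name exists only for transcripts that the authors' selection kept. ANXA2, the annexin that links actin to membranes together with S100A10, had log2 signals of 7.03, 7.09, 7.29 and 5.39 in infarcted tissue, against 5.54, 5.04, 5.54 and 4.30 in remote tissue. The infarcted sample of pig 4 lay below 2 of the remote samples, so the groups overlapped. Its log2 fold change was 1.60 (standard error 0.43, 95% confidence interval 0.64 to 2.55) and did not pass the adjusted p in limma (0.0573). Within pigs 1 to 4 ANXA2 was higher in infarcted tissue by 1.49, 2.05, 1.75 and 1.09. In the fit blocked by pig (replicate block) it rose (adjusted p = 0.00282), as it did without pig 4 (0.000594). All 3 named annexins then passed, against 2 with region only and 1 without infarcted replicate 1 or 3, and the share of all transcripts called was 4.57% higher and 5.66% lower with the block, and 6.89% higher and 7.48% lower without pig 4.

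Of 19 S100 genes, 3 had a transcript of their own name. S100A8 rose, as did S100A11, while S100A12 did not pass. S100A8, a calcium-binding protein stored in neutrophils and monocytes, had log2 signals of 4.93, 5.65, 6.54 and 3.73 in infarcted tissue, against 2.73, 3.19, 2.95 and 2.66 in remote tissue. It rose by 2.33 in log2 signal (adjusted p = 0.0176 from limma), and 4 single arrays each ended this call when left out, infarcted replicates 1 and 2 and remote replicates 1 and 3 (up to 0.0601). S100A12, another granulocyte S100 protein, had 3.88, 4.61, 5.81 and 2.39 in infarcted tissue, against 2.39, 2.34, 1.96 and 2.65 in remote tissue, and its log2 fold change of 1.84 had an adjusted p of 0.0977 in limma (0.0617 with the replicate block, 0.00283 without pig 4). Since the remote means of S100A8 and S100A12 were lower than the median signal of all 8 arrays, detection in remote tissue is not established and the sizes of change are uncertain. A transcript shared by S100A4 and S100A3 had a log2 fold change of 0.89 (adjusted p = 0.111, 0.0486 with the replicate block, 0.00617 without pig 4), which cannot be given to either gene and whose remote mean was likewise below the array medians.

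**Figure D4:**
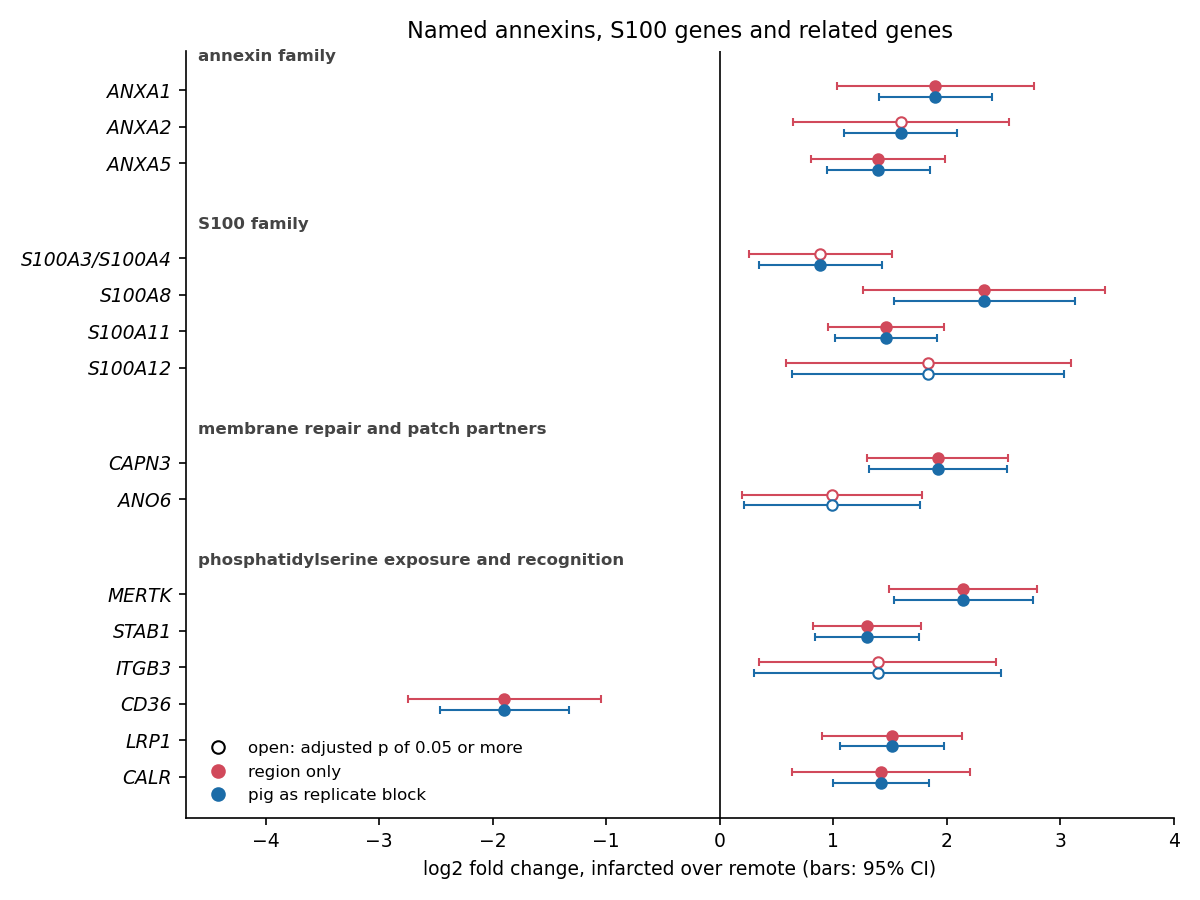
Log2 fold change of infarcted over remote tissue (x axis, bars 95% confidence intervals) for the named genes of 4 lists, with region only (red) or blocked by pig (blue), and open symbols where the adjusted p was 0.05 or more. ANXA1, ANXA5 and S100A11 are filled under both, ANXA2 only with the block, and CD36 is the only gene to the left of 0.

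Of 30 genes of membrane repair and its patch partners, 2 carried a name, CAPN3 and ANO6. CAPN3, a calcium-activated protease known from skeletal muscle, had log2 signals of 5.21, 4.69, 5.51 and 4.21 in infarcted tissue, against 2.94, 3.10, 2.85 and 3.04 in remote tissue. It rose by 1.92 in log2 signal, in all 4 pigs (SE 0.28, adjusted p = 0.00349 from limma), and stayed past the threshold without any 1 array. Its remote mean of 2.98 lay within the range of the array medians (2.96 to 3.22). Detection of CAPN3 in remote tissue is therefore not established, and the size of its change is uncertain. ANO6, the calcium-dependent scramblase that exposes phosphatidylserine, had 5.99, 5.90, 5.42 and 4.30 in infarcted tissue, against 4.58, 4.17, 4.14 and 4.77 in remote tissue. It was higher in infarcted tissue in pigs 1 to 3 and lower in pig 4, with a log2 fold change of 0.99 (adjusted p = 0.163 in limma, 0.00223 without pig 4). None of the 11 receptors and targets of annexin A1, such as the formyl peptide receptors, carried a name, and these were not analysed here.

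The annexins share their lipid, phosphatidylserine, with the receptors by which phagocytes recognize dying cells. Of 25 genes for its exposure and recognition, 7 carried a name. MERTK, STAB1, LRP1 and CALR rose, CD36 fell, and ITGB3 and ANO6 did not pass in limma. MERTK, a receptor kinase of macrophages that binds phosphatidylserine through bridging proteins, rose by 2.15 in log2 signal (SE 0.30, adjusted p = 0.00278), with 6.28, 5.81, 6.03 and 4.90 in infarcted tissue, against 3.81, 3.48, 3.39 and 3.76 in remote tissue. Its transcript was named through RefSeq and shares its annotation with an unnamed locus. The phagocytic receptors STAB1 and LRP1 rose by 1.30 (adjusted p = 0.00665) and 1.52 (adjusted p = 0.011).

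CALR, a chaperone that can also mark dying cells on their surface, rose by 1.42 (adjusted p = 0.0409), a call that ended when any 1 array other than infarcted replicate 4 was left out (up to 0.132), and also with median centring (0.0928) and with trend and robust moderation (0.0656). CD36, a scavenger receptor that also imports fatty acids, fell by 1.90 (adjusted p = 0.0166). This call ended on leaving out remote replicate 1, remote replicate 2 or infarcted replicate 1 (up to 0.0612). The CD36 transcript shares its annotation with an unnamed locus. Integrin subunit ITGB3 had a log2 fold change of 1.39 (adjusted p = 0.133, 0.114 with the replicate block, 0.000172 without pig 4), with the infarcted sample of pig 4 at 2.14. The median over the 7 genes was 1.39, which is the value of ITGB3 itself. The remote mean of ITGB3 lay below the median signal of all arrays, so that size is uncertain too. The median was 0.02 over all transcripts, −0.9975 over the 1342 named genes and 1.3562 over the 586 named genes that were higher. The 7 genes carry names because their transcripts were in the table selected on this contrast. The distance of their median from 0.02 is therefore not a finding, and their median says nothing of the other 18.

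Named macrophage and fibroblast markers were higher in the infarcted sample of all 4 pigs, as were ANXA1, ANXA5 and S100A11, and their part in the rise of these genes was not tested. Cell type markers, too, carry names only because their transcripts were in the table selected on this contrast. The counts here and in the next paragraph are therefore not a finding and say nothing of the unnamed markers. By the same rule 2.47% of all transcripts were higher and 3.42% lower. Among transcripts with a single named gene the shares were 25.3% and 35.0%. All 7 named macrophage and monocyte markers rose, among them CSF1R (log2 fold change 1.58), AIF1 (1.79) and TYROBP (2.01). These encode the receptor for CSF1, a calcium-binding protein and an adaptor of macrophages. The summed linear signal of the 7 markers was 377 to 1150 in infarcted and 173 to 214 in remote tissue. Its log2 ratio was 2.23, 2.49, 2.45 and 1.13 in pigs 1 to 4. FCER1G had the highest signal of the 7 in every sample and so weighs most in the sum. Its change in pig 4 was 0.58, while the rest changed there by 0.99 (LGALS3) to 2.38 (TYROBP). Of 8 named fibroblast and myofibroblast markers 7 rose, among them COL1A1 (8.01-fold), COL1A2 (log2 fold change 2.57) and COL3A1 (2.30), and their sum was 2660 to 4990 in infarcted and 216 to 873 in remote tissue. The log2 ratio of that sum was 2.86, 2.52, 2.46 and 3.62, highest in pig 4. Single markers differed from their sum in pig 4, where TYROBP had its largest change (2.38), and ACTA2 (0.46), TAGLN (0.85) and COL1A2 (2.27) had their smallest, while COL1A1 (5.29) and POSTN (5.09) had their largest. The transcripts of CSF1R, COL1A1 and COL1A2 each share their annotation with an unnamed locus. Without pig 4 the counts were 7 of 7 for macrophages and monocytes and 8 of 8 for fibroblasts and myofibroblasts. Of all transcripts 6.89% were higher in that fit. With 1 array left out, 5 to 7 of the macrophage and monocyte markers rose, and 3 to 8 of the fibroblast and myofibroblast markers, with 3 without infarcted replicate 1 and 4 without infarcted replicate 3.

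Of 10 neutrophil markers 3 carried a name, 2 of them S100 genes given above, and 1 of the 3, S100A8, rose, while S100A12 and MMP9 did not pass (all 3 passed without pig 4). Their summed signal was 23.6 to 166 in infarcted and 15.3 to 19.4 in remote tissue, a log2 ratio of 1.97, 2.39, 3.27 and 0.34 in pigs 1 to 4. In pig 4 S100A12 and MMP9 were each lower in infarcted tissue (−0.26), and the remote means of all 3 were below every array median. Of 10 named cardiomyocyte markers 7 fell, and their sum was 2040 to 9810 in infarcted and 13700 to 23800 in remote tissue, with a log2 ratio of −1.99, −1.28, −3.37 and −0.50 in pigs 1 to 4. ACTN2, the actinin of the sarcomere, fell by 2.81, whereas MYH7 (−1.55, adjusted p = 0.0716) and the troponin TNNC1 (−1.67, adjusted p = 0.0917) did not pass in limma, though both did with the replicate block (0.0426 and 0.0414). The count that fell was 9 with the replicate block and 10 without pig 4, but 2 when either array of pig 1 or remote replicate 2 was left out, and 3 without remote replicate 3. Of all transcripts 5.66% were lower with the block and 7.48% without pig 4. Of 5 smooth muscle markers 1 carried a name, SMTN, which fell by 1.04 (adjusted p = 0.03 from limma) and was lower in all 4 pigs. This call ended without remote replicate 1 or 2 or infarcted replicate 1 or 3 (up to 0.102), and with quantile normalization (0.0677). No endothelial, lymphocyte or red cell marker carried a name, so these cell types were not analysed here. Leaving out single arrays ended the calls for COL1A1 (up to 0.0642 without infarcted replicate 1 or 3), COL3A1 (up to 0.109 on dropping an array of pig 1, 2 or 3, and 0.0717 with median centring) and ACTN2 (up to 0.078 without infarcted replicate 1 or remote replicates 1 to 3).

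**Figure D5:**
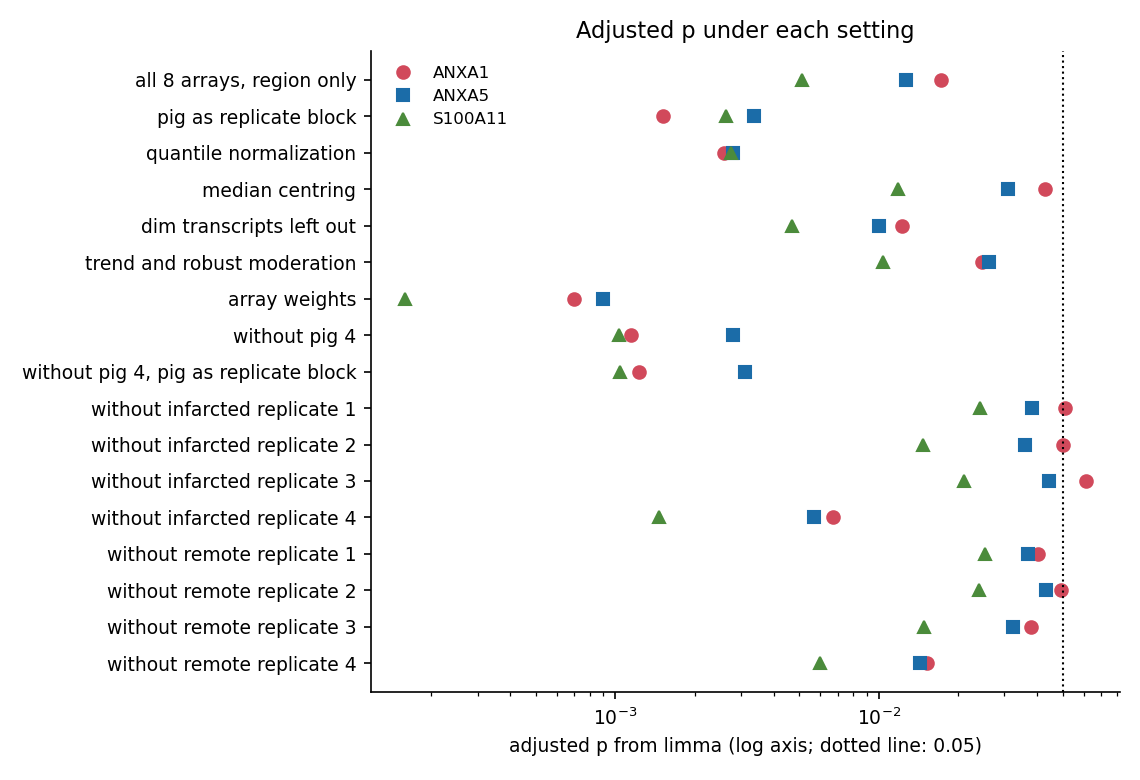
Adjusted p from limma (x axis, log scale, dotted line at 0.05) of ANXA1, ANXA5 and S100A11 for each setting (rows). ANXA5 and S100A11 lie left of the line in every row, and ANXA1 lies right of it without infarcted replicate 1 (0.0508) and without infarcted replicate 3 (0.0610).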

How the data were processed

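RNA of 4 infarcted and 4 remote samples was labeled with the GeneChip WT Pico kit and hybridised to GeneChip Porcine Gene arrays. Normalization and annotation by the authors used the Transcriptome Analysis Console (version and summarisation method not given in the sources used here), and they deposited 1 log2 signal per transcript and array. From the authors' deposited comparison table only the gene symbols were used, a text annotation. Its group averages, fold changes and p-values, the enrichment sheets and the study's protein values were not used. Of its 538 placeholder loci 111 were named from RefSeq (Sscrofa11.1), a transcript with several symbols was counted for none of them, and a gene was represented by its transcript with the highest mean signal.

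Region was the only factor, infarcted minus remote, in a model of the log2 signals made with limma 3.58.1 (R 4.3.3). The labels give the animal, so that each replicate number pairs samples of 1 heart, and the paired deviations from the region means correlated with r of 0.177, 0.428, 0.113 and 0.441 in pigs 1 to 4 over all transcripts. Alternatives were blocking by pig (a replicate block), median centring, quantile normalization, array weights, other moderation, leaving out dim transcripts, leaving out each array, and, chosen after seeing the data, leaving out pig 4. The members, the lists and the rule for naming genes (the members, all named genes of the 5 pathway lists, the 5 genes most like each member and the first 3 of each cell type list) were chosen with earlier results of these data known. Other genes in the closing section were named after their values were seen. The fit was tested on simulated arrays with independent errors, which lack the pairing of samples and the narrower spread of pig 4. It called 16 of 67 transcripts changed by 1 in log2 signal, 55 of 67 changed by 2 and 65 of 66 changed by 4. Most 2-fold changes were thus missed there. The number of arrays limits the precision, with a median standard error of 0.274 for a log2 fold change. Summaries and figures were made with Python 3.11.15, pandas 2.3.3, numpy 2.4.6, scipy 1.17.1 and matplotlib 3.10.9. No sequences were used here.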

Additional observations from a re-analysis of the deposited data

Results flagged for a closer look

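Among 106 sets of 4 samples of a region, 11 held a sample far from the other 3, with most of the range taken by its gap to the nearest, and chance alone flags about 1 in 20 sets. Of the 11, 10 concern pig 4. In infarcted tissue pig 4 was low for ANXA2 (5.39), ITGB3 (2.14), a transcript shared by CD68 and EIF4A1 (5.6), FCER1G (7.32), COL1A2 (7.71) and CDC42 (8.68). In remote tissue it was low for COL3A1 (3.77), MYL2 (11.68), LCP1 (4.33) and NRAS (5.6). The remaining one was PLN in infarcted tissue of pig 2, which was high at 6.84. No set of ANXA1, ANXA5 or S100A11 was among them, but the remote set of ANXA1 came just short of the limit, with pig 4 low at 4.99 and its gap taking 0.827 of the range.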

How the results depend on the processing

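Under 16 alternatives each, ANXA5 and S100A11 kept their direction and stayed past the threshold, and ANXA1 did so under 14, all but the fits without infarcted replicate 1 or 3. With 1 array left out, log2 fold changes ran from 1.55 to 2.15 for ANXA1, 1.22 to 1.54 for ANXA5 and 1.34 to 1.61 for S100A11. Under the other alternatives they ran from 1.76 to 2.08, 1.33 to 1.52 and 1.43 to 1.58, with adjusted p of at most 0.0427, 0.031 and 0.0118. The transcripts called numbered 630 higher and 872 lower. They numbered 1163 and 1441 with pig as replicate block, 1966 and 2136 with array weights, 1755 and 1906 without pig 4, and 1949 and 2166 without pig 4 and with the block. With 1 array left out they ran from 259 to 1383 higher, lowest without infarcted replicate 1 and highest without infarcted replicate 4, and from 415 to 1508 lower, lowest without remote replicate 1 and highest without remote replicate 4. The cause of these shifts was not tested. Besides ANXA2 and the shared S100A4 and S100A3 transcript, the block also brought MMP9 (adjusted p = 0.0481), FAP (0.00655), MYH7 (0.0426) and TNNC1 (0.0414) past the threshold. It took none of the 53 transcripts compared here below it. Averaging over the transcripts of a gene gave no value, because each of the 3 genes has 1 named transcript. Others outside the authors' table could not be identified.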
